A study of Mus musculus with 10 samples.

Results

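Expression of the 6 genes that encode the SoxD and SoxC transcription factors was followed in the embryonic mouse cortex: Sox5, Sox6 and Sox13 for SoxD, and Sox4, Sox11 and Sox12 for SoxC. They were chosen by name, as all members of both groups, with earlier results of these data known. They are 6 of the 31053 genes in the count matrices. The data are single-cell RNA sequencing (10x Genomics 3′ version 3) of the dissociated cortex of 10 embryos at E16.5, with 1 library per embryo. Of the embryos 3 were wild type (WT), 4 carried the Gatad2b stop allele on 1 chromosome (stop/+, Het) and 3 on both (stop/stop, KO). The stop allele, Gatad2b tm1a(EUCOMM)Hmgu, holds a gene-trap cassette between the first coding exons and is present in every cell of Het and KO embryos. The cassette is an insertion that deletes no exon, and whether some transcripts bypass it was not analysed here. WT embryos lack the allele, and all embryos share a C57BL/6N-A tm1Brd background. Het and WT embryos are described as littermates, and the sex of the embryos and which of them share a litter are not given in the sources used here. GATAD2B is a subunit of the NuRD chromatin remodelling complex.

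Cells with at least 1000 unique molecular identifiers (UMIs, counted transcript molecules) and at most 10% mitochondrial UMIs were kept, 65779 of 80071 barcodes, and each embryo held 5147 to 8103 of them with a median depth of 10795 to 17077.5 UMIs per cell. UMIs were summed per embryo, so that the embryo was the replicate. Gatad2b itself followed the labels: it measured 139, 131 and 133 CPM (the usual depth-scaled unit, UMIs of a gene relative to all UMIs of the sum) in the WT embryos, 94.2, 89.8, 90.0 and 95.7 CPM in the Het embryos, and 50.9, 52.8 and 57.3 CPM in the KO embryos. Library names fell into a pair of prefixes, 1 that held Het replicate 4 beside all WT embryos, and 1 that held Het replicates 1 to 3 beside all KO embryos. What the prefix stands for is not stated, and between WT and KO embryos it cannot be told apart from genotype. Het replicate 4 stood apart from the other Het embryos, with a chi-square per degree of freedom over genes of 107 to 148 against each of them, where the others gave 14.5 to 25.5 among themselves. Of the calls of the 6 genes described below, the 2 within classes between Het and WT, the 12 within classes between KO and Het and the 1 over all cells between KO and Het were all kept without it. Of 65282 distinct barcode sequences, 496 occurred in more than 1 library, 4 to 19 per pair of libraries.

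Cells were clustered without the 6 genes, and 11 classes were named from marker genes and compared between genotypes. Layer II-IV-like projection neurons (19468 cells), layer V-VI-like projection neurons (8938) and interneuron-like cells (10698) were the largest of them that belong to the cortex. Striatal inhibitory-like cells (6522) were also present in these dissections, with their striatal markers summing to 2715 ± 150.02 CPM (SD, n = 3) in WT. A further 5 clusters stayed unnamed and were tested by number: cluster 4, led by Tfap2d and Thsd7a, cluster 9, led by Crym, Lhx9 and Grp, cluster 12, with genes of mitosis, cluster 15, with genes of DNA replication, and cluster 13, with a median of 1536 UMIs per cell.

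SOX proteins bind DNA through a high-mobility-group box. SoxD proteins carry a coiled-coil domain through which they pair, have no transactivation or repression domain of their own, and act with partner factors. In the cortex, Sox5 sets the timing with which deep-layer corticofugal neurons and their subcortical axons form, Sox6 acts downstream of Lhx6 in interneurons from the medial ganglionic eminence, and both genes are expressed in complementary progenitor zones of the pallium and subpallium. SoxC proteins activate transcription and are best known for switching on neuronal genes as progenitors leave the cell cycle. SOX4 and SOX11 activate an enhancer of Fezf2, the selector gene of subcerebral projection neurons, at which SOX5 competes with them.

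The genes of both groups are built differently. On GRCm38 with the GENCODE vM21 annotation, all 6 lie on the minus strand. Sox5 (chr6:143828425-144781977) spans 953.6 kb and has 7 coding transcripts of 6 to 15 exons, and Sox6 (chr7:115470872-116038796) spans 567.9 kb with 10 coding transcripts of 3 to 17 exons. Sox13 (chr1:133382303-133424377) has 3 coding transcripts of 13 to 14 exons. Sox4 (chr13:28948919-28953713) and Sox11 (chr12:27334264-27342574) each consist of a single exon, and Sox12 (chr2:152393611-152398063) of 1 or 2. The Sox5 interval overlaps 7 other annotated genes, 2 of them on the same strand, so a UMI in the shared part cannot always be told apart.

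RefSeq promoter sequences (GRCm38.p6, 250 bases before to 50 bases after a transcript start, written 5′ to 3′ on the minus strand) were matched for all 6 genes, with 11 entries in all. They are shown for Sox5, whose level differed most between genotypes, and for the SoxC genes, whose levels rose together, and capitals mark each CpG dinucleotide.
Sox5, chr6:143947057-143947356: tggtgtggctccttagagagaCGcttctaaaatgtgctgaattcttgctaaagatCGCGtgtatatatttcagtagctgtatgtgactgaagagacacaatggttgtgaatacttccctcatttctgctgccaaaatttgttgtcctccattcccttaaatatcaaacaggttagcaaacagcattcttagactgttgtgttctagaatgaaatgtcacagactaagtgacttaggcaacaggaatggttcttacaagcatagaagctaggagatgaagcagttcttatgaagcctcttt
Sox4, chr13:28953650-28953949: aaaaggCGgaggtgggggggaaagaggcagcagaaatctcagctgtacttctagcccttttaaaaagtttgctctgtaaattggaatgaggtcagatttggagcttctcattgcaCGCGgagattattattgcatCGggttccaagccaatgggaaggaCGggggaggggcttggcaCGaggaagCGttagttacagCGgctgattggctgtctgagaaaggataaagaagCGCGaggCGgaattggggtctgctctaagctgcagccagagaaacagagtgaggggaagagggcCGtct
Sox11, chr12:27342669-27342968: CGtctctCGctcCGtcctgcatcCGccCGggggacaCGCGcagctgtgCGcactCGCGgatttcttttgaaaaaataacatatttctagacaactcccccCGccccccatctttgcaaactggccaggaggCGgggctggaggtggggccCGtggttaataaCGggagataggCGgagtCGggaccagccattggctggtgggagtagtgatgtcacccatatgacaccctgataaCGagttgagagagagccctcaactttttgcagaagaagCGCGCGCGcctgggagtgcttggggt
Sox12, chr2:152397997-152398296: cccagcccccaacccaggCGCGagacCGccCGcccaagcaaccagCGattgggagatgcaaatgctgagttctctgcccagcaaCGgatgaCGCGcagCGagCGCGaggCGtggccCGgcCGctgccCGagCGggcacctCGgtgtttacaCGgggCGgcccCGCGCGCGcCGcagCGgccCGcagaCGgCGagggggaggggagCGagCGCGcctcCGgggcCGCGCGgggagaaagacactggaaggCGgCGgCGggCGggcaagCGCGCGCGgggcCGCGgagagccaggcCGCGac
The Sox5 entry is an internal start, 834.9 kb from the start of the annotated gene, and other starts of Sox5 are not shown here. It holds 3 CpGs, a number reached by 76.7% of the 32851 promoters in the table, whose median is 7. Sox4 holds 12 CpGs (reached by 39.6% of promoters), Sox11 21 (24.8%) and Sox12 47 (1.44%). The Sox13 entry holds 40 CpGs (3.91%), and the 6 entries of Sox6 hold 2 to 13. The letters ACAAT, the core to which SOX proteins bind, occur on either strand in 31.0% of all promoters, once in the Sox5 sequence and in none of the Sox4, Sox11, Sox12 and Sox13 sequences. Of the 6 Sox6 entries, 3 hold it, 2, 2 and 3 times.

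In WT embryos each of the SoxD genes was highest in a different class. Sox5 was highest in layer V-VI-like neurons at 710.1 ± 38.9 CPM (SD, n = 3), followed by subventricular zone-like cells (178 ± 10.0), oligodendrocyte precursor-like cells (133 ± 6.83), radial glia-like cells (123 ± 11.8) and layer II-IV-like neurons (114 ± 6.29). Layer V-VI-like neurons and subventricular zone-like cells stood clear of the next class in every embryo, whereas the embryos of radial glia-like cells (112 to 135) overlapped with those of both neighbours. Interneuron-like cells (62.7 ± 1.69), layer I-like cells (44.8 ± 10.7) and striatal inhibitory-like cells (29.5 ± 7.96) were low. The level in layer V-VI-like over layer II-IV-like neurons was 2.64 on the log2 scale, and 2.18 with a finer clustering (resolution 0.8 in place of 0.4). Unnamed cluster 13 had the highest Sox5 level of all, 799.7 ± 123 CPM, in cells of low depth.

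Sox6 was highest in 3 classes: interneuron-like cells at 172 ± 19.1 CPM (SD, n = 3), oligodendrocyte precursor-like cells at 165 ± 63.9 and radial glia-like cells at 152 ± 12.2. Their embryos overlapped, so no order among them can be given at this clustering. Subventricular zone-like cells followed at 103 ± 8.13, below interneuron-like and radial glia-like cells in every embryo and overlapping with oligodendrocyte precursor-like cells, and the postmitotic projection neurons had little Sox6, 5.01 ± 0.768 in layer II-IV-like and 3.06 ± 1.06 in layer V-VI-like neurons. Layer II-IV-like neurons overlapped with erythroid-like cells (5.76 ± 1.42) and layer V-VI-like neurons with layer I-like cells (2.56 ± 2.07). Sox6 is known to act in red cell precursors, so the erythroid-like cells are no background for it, and the part of free RNA in these low levels was not tested. The oligodendrocyte precursor-like class is a single cluster of 1174 cells with a median of 2400 UMIs per cell, which is led by Ttr and holds as many radial glia markers (Fabp7, Tnc and Hes5) as markers of its own (Olig1, Olig2 and Pdgfra) among its 10 leading genes. At resolution 0.8, 789 of these cells, with Ttr as their leading gene, joined the radial glia-like class, and the 385 others made up nearly all of an oligodendrocyte precursor-like cluster with a median of 17708 UMIs. In WT embryos Sox6 was then 194 ± 34.2 CPM in oligodendrocyte precursor-like and 136 ± 25.4 CPM in radial glia-like cells, and Sox5 was 155 ± 13.7 and 116 ± 10.8 CPM. These 2 classes no longer overlapped between embryos for Sox6 (169 to 233 against 108 to 156 CPM) or Sox5 (142 to 169 against 107 to 128 CPM). For Sox6, interneuron-like cells at that resolution (140 to 185 CPM) overlapped with both.

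Sox13 was rare, with 409 UMIs in all WT cells together. Among the classes compared, it was highest in mural-like cells, the cells of vessel walls, at 15.0 ± 6.14 CPM (SD, n = 3, 54 UMIs). Striatal inhibitory-like cells (6.34 ± 0.679, 115 UMIs), radial glia-like cells (4.63 ± 2.04) and oligodendrocyte precursor-like cells (4.2 ± 2.24) followed. The last 3 overlapped between embryos. Endothelial-like cells, too few in some embryos to be compared, made up 0.563% of WT cells and held 9.29% of the Sox13 UMIs. Mural-like cells made up 0.527% and held 13.1%. Layer II-IV-like neurons had 0.257 ± 0.0388 CPM and layer V-VI-like neurons 0.124 ± 0.113, and no UMI was found in microglia-like cells.

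The SoxC genes were found in most neurons. Sox4 ran from 3428 ± 105 CPM in subventricular zone-like cells (SD, n = 3) through 3239.7 ± 28.9 in striatal inhibitory-like, 2965 ± 144 in layer V-VI-like and 2589 ± 163 in layer II-IV-like neurons to 1848 ± 255 in interneuron-like cells. No 2 neighbours among these 5 overlapped between embryos. Radial glia-like cells (982 ± 135), layer I-like cells (899 ± 65.7) and oligodendrocyte precursor-like cells (719.7 ± 108) were lower, and the first pair overlapped. Sox11 was also highest in subventricular zone-like cells, the zone of intermediate progenitors and newborn neurons, at 6525 ± 471 CPM. It then measured 4824 ± 235 in layer II-IV-like, 4352 ± 511 in interneuron-like, 3749 ± 113 in striatal inhibitory-like and 3632 ± 188 in layer V-VI-like neurons, and 1180.2 ± 160.1 in radial glia-like cells. Embryos of interneuron-like cells overlapped with those of layer II-IV-like neurons, and those of striatal inhibitory-like cells with those of layer V-VI-like neurons. Sox12 was highest in both projection neuron classes, 137 ± 4.07 in layer II-IV-like and 136 ± 3.87 in layer V-VI-like neurons, which overlapped, and was 76.0 ± 4.06 in radial glia-like and 74.9 ± 13.7 in subventricular zone-like cells.

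**Figure D1:**
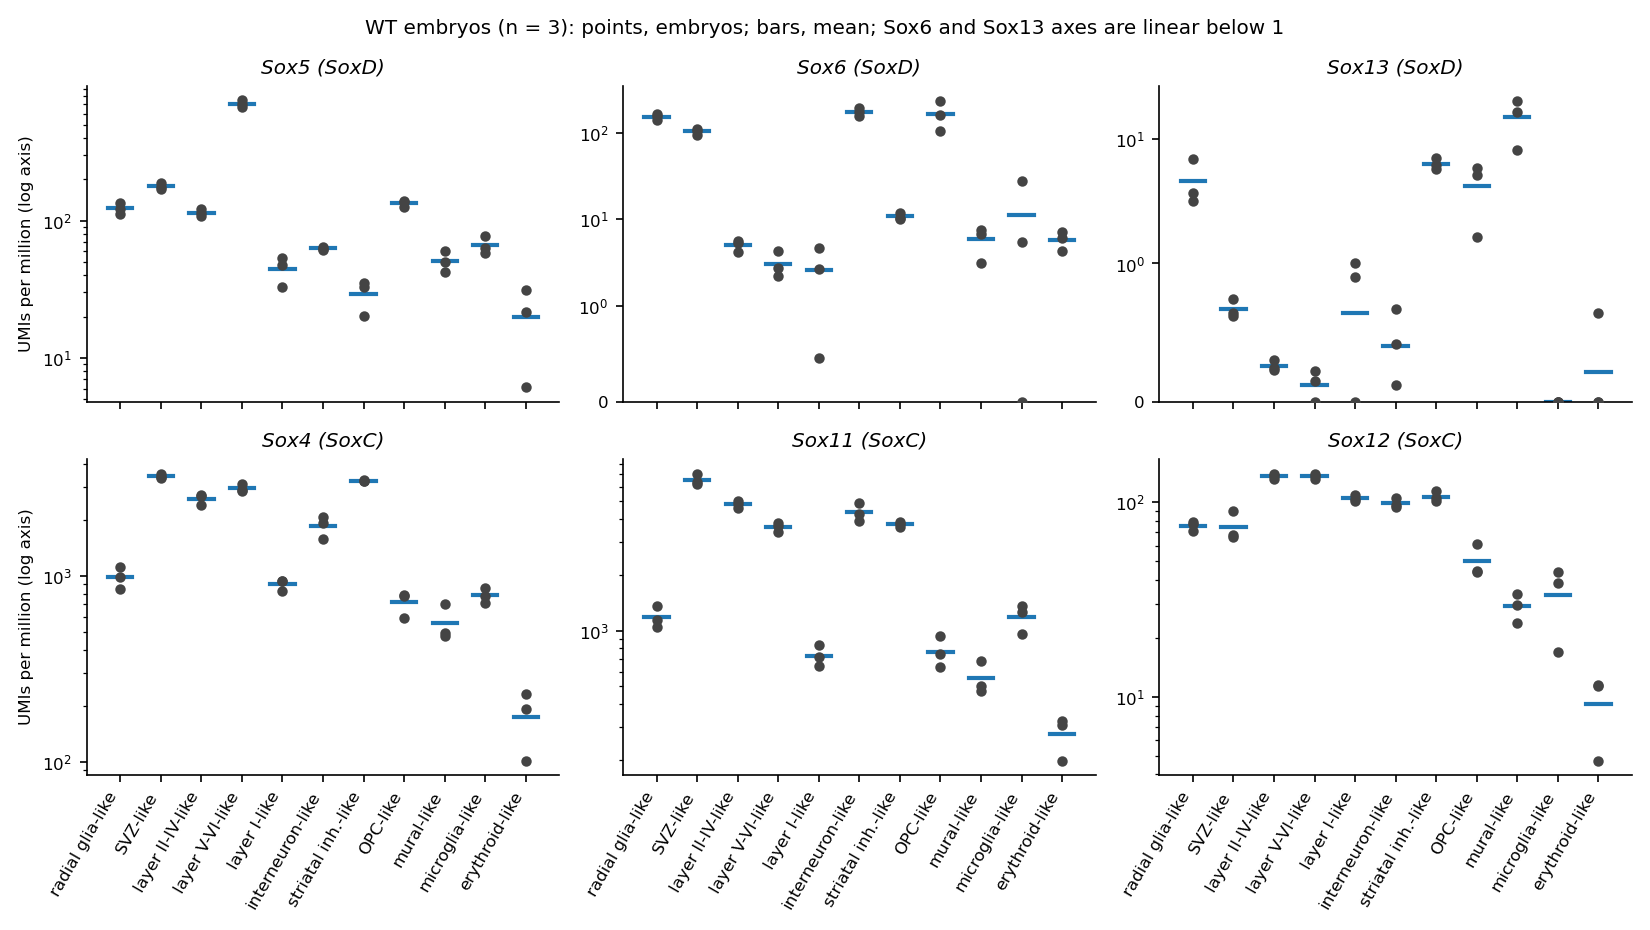
Levels of the 6 genes in CPM (log axes, those of Sox6 and Sox13 linear below 1) in the 11 named classes of the 3 WT embryos, with points for embryos and bars for means. Sox5 peaks in layer V-VI-like neurons at 710.1 CPM, Sox6 in interneuron-like cells, oligodendrocyte precursor-like cells and radial glia-like cells, and Sox4 and Sox11 in subventricular zone-like cells.

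Over the mean WT levels of the 11 classes (log2 of CPM + 1), Sox4 and Sox11 had a Pearson r of 0.957, Sox4 and Sox12 of 0.881, and Sox11 and Sox12 of 0.777. Among the SoxD genes r was 0.154 for Sox5 and Sox6 and -0.210 for Sox5 and Sox13. Classes of the same embryos share libraries, and depth differs between classes, so these values are descriptions. The genes most like Sox5 among 6316 with at least 50 CPM in a class were Fezf2 (r = 0.93), Nlgn1, Zfpm2, Id2 and Lix1. Those most like Sox6 were Nr2e1, Npas3, Palld, Sox2 and Zfp219, with r from 0.91 down to 0.82. Those most like Sox13 were Ccdc141, S100a16, Mest, Ptgfrn and Lamc1 (0.89 to 0.84). Mex3b, Rnf165 and H3f3a were among the 5 closest genes of both Sox4 and Sox11, with 2700081O15Rik and Narf for Sox4 and Srrm4 and Plxna2 for Sox11. Nmt2, Stau2, Kif3c, Ccdc112 and Dpysl2 were closest to Sox12 (0.99 to 0.98).

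Over all cells of an embryo, every one of the 6 genes was higher in KO than in WT embryos. A gene was called where the Benjamini-Hochberg adjusted p over all genes tested was below 0.05 and the log2 fold change exceeded 0.25 in size (edgeR quasi-likelihood F-test). By that rule 6 of 6 members were called, all of them higher, where 24.5% of the 17647 genes tested were called and 12% were called higher. In 6 of 6 the KO and WT embryos did not overlap, as for 52.7% of all genes. Fewer cells of a class and less RNA per cell cannot be told apart in such sums. When every class was given the same weight in each embryo, none of the 6 was called, and Sox4 (-0.08), Sox11 (-0.19) and Sox12 (-0.04) turned to lower values in KO. Each tested class and unnamed cluster counted alike there. Microglia-like cells (296), erythroid-like cells (1560) and cluster 13 (1677) thus each weighed as much as the 19468 layer II-IV-like cells. The part of such small classes in the change of direction was not tested. Subventricular zone-like cells made up 2.72% of WT, 3.87% of Het and 5.50% of KO cells and radial glia-like cells 1.25%, 1.90% and 2.99%.

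Sox5 showed the largest difference over all cells. It measured 226, 199.8 and 174 CPM in the WT embryos (scaled here and in all comparisons below by TMM, trimmed mean of M-values), 251, 197, 221 and 287 CPM in the Het embryos, and 421, 355 and 374 CPM in the KO embryos. The lowest KO embryo lay above the highest Het embryo, as KO and Het did not overlap for 20.3% of genes, and the highest Het value was that of Het replicate 4. The log2 fold change was +0.94 ± 0.13 (SE) for KO against WT (adjusted p = 0.000382), +0.68 ± 0.12 for KO against Het (0.00592) and +0.26 ± 0.12 for Het against WT (0.197). With classes weighted equally the first of these was +0.19 (0.279) and the last -0.21.

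The other 5 moved less. Sox6 rose by +0.42 ± 0.11 (log2 fold change ± SE) in KO against WT embryos (adjusted p = 0.00998) and Sox13 by +0.38 ± 0.13 (0.0378), a call that was lost in 11 of 20 alternatives. Among them were the fits without any WT replicate, Het replicate 2 or KO replicates 1 or 3, with Sox13 at +0.28 to +0.41 and adjusted p from 0.0553 to 0.137. Sox4 rose by +0.32 ± 0.05 (0.00113), Sox11 by +0.40 ± 0.05 (0.000308) and Sox12 by +0.28 ± 0.04 (0.000515), all 3 with the change of direction under equal weights given above. Without WT replicate 3, Sox12 was +0.24 (0.00295), under the fold limit. Between Het and WT embryos none of the 6 was called, where 2.98% of genes were. An unadjusted p below 0.05 was found for 4 of 6, as for 4749 of 17647 genes, and DESeq2 called 1. That 1 was Sox13, whose values were 1.11, 1.30 and 1.30 CPM in WT, 1.62, 1.68, 1.93 and 1.62 CPM in Het and 1.57, 1.45 and 1.81 CPM in KO embryos. Every Het and KO embryo was above every WT embryo, where Het and WT did not overlap for 19.8% of genes, with a log2 fold change of +0.46 ± 0.12 in Het (edgeR, adjusted p = 0.0507) and of +0.49 (0.0212) without Het replicate 4. The highest Sox13 value among Het embryos was that of Het replicate 3, which held 340 endothelial-like cells, where the other embryos held 11 to 55. The part of these cells was not tested. Between KO and Het embryos 1 of 6 was called, Sox5, where 5.5% of genes were. For 5 of 6 the unadjusted p was below 0.05, as for 3947 of 17647 genes.

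Within classes and unnamed clusters, 81 pairs of a gene and a class had enough counts to be tested. Sox4, Sox5 and Sox11 passed in all 16, Sox12 in 15, Sox6 in 12 and Sox13 in 6. Of these pairs 25 were called between KO and WT embryos, 12 between KO and Het and 2 between Het and WT, and each one was higher in the genotype with fewer intact Gatad2b alleles. Pairs with an unadjusted p below 0.05 numbered 42, 32 and 24. Of all genes, 7438, 4304 and 4144 of 14503 had such a p in layer II-IV-like neurons, in the same order of comparisons. In mural-like cells 1184, 529 and 772 of 9442 did. The share of all genes called gives the background, and is stated for most classes here or beside their results. Between KO and WT it ran from 19 of 9286 genes in oligodendrocyte precursor-like cells to 4412 of 14503 in layer II-IV-like neurons. In mural-like cells it was 27 of 9442. The highest were 1697 of 14503 between KO and Het and 1003 of 14503 between Het and WT, also in layer II-IV-like neurons. Both Het against WT calls lie there. For Het against WT the share was 0 of 12824 in interneuron-like and 16 of 10545 in layer I-like cells. In cluster 12 it was 5 of 10889. Between Het and WT it was 1.41% in striatal inhibitory-like, 0.972% in subventricular zone-like and 1.05% in radial glia-like cells, 0.0241%, 0.0557% and 0.0653% in clusters 4, 9 and 15, and 0.0865% in erythroid-like cells. In erythroid-like and microglia-like cells and cluster 13, where no member was called, it was 12.3%, 1.52% and 1.27% between KO and WT, and in cluster 15 it was 0.0653% between KO and Het. By gene, the 25 calls were 8 for Sox5, 5 each for Sox11 and Sox12, 4 for Sox4 and 3 for Sox6.

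**Figure D2:**
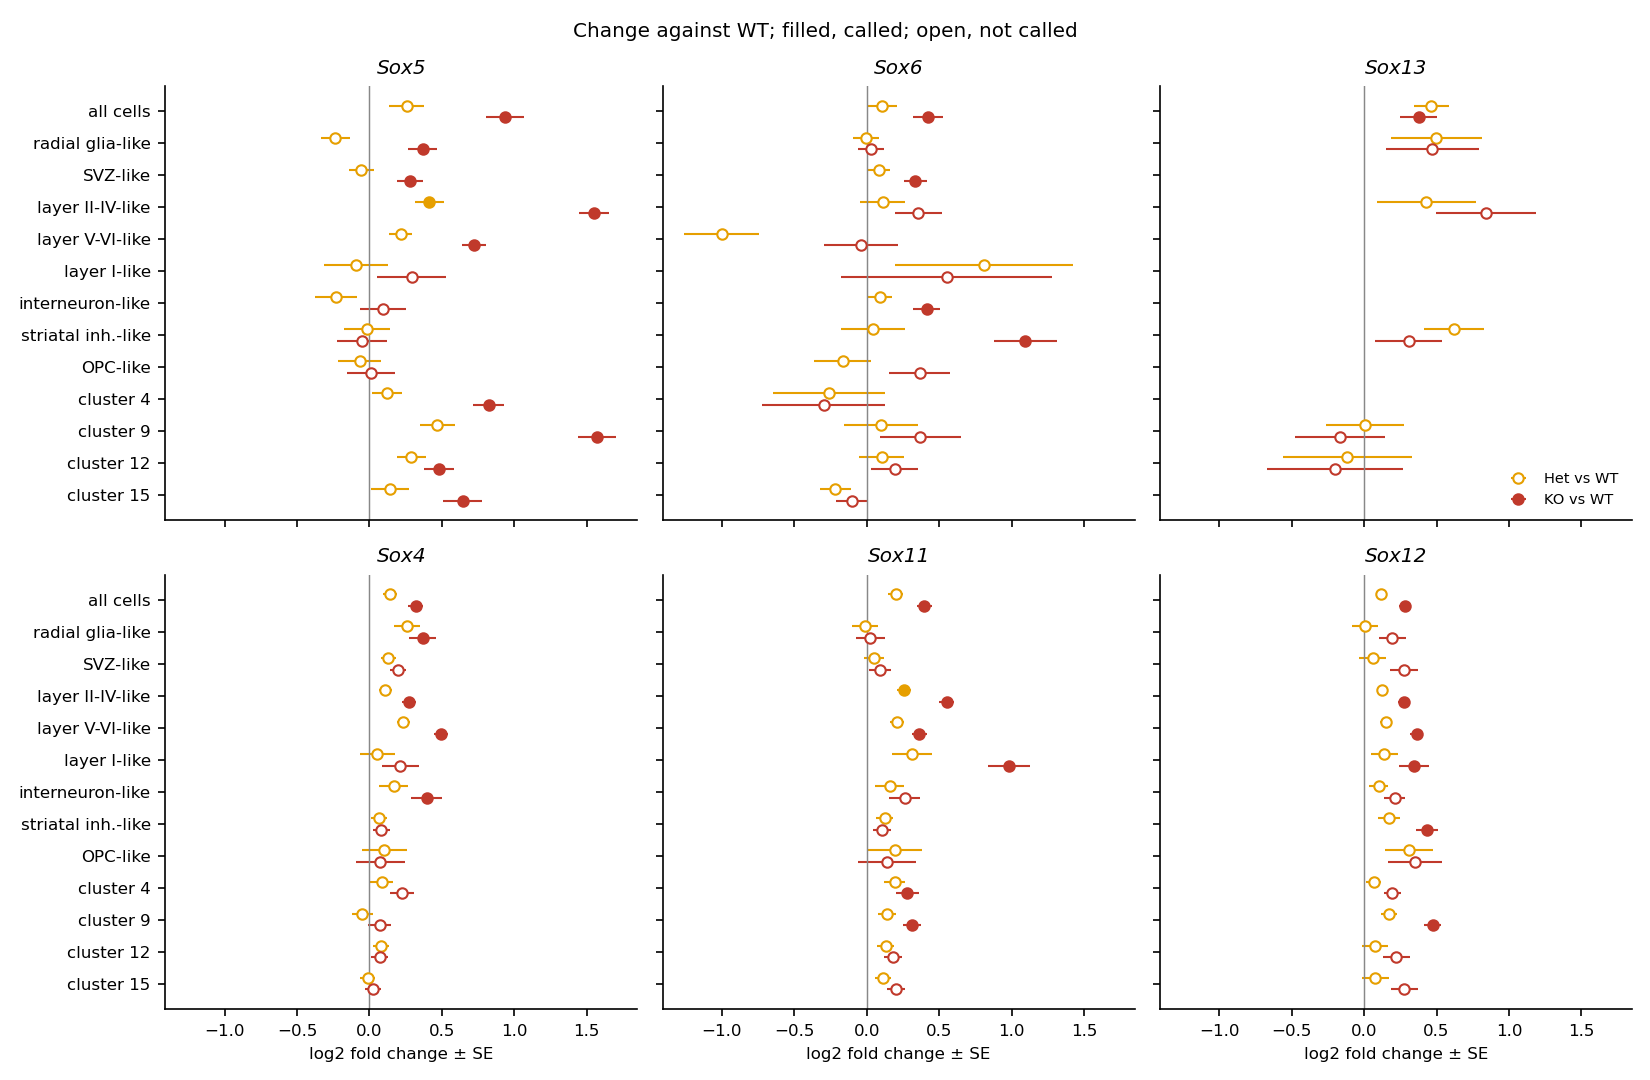
Log2 fold changes against WT (points, ± SE) of the 6 genes over all cells, in 8 named classes and in 4 unnamed clusters, for Het (yellow) and KO (red) embryos, where filled points were called and open points were not, and empty rows were not tested. Sox5 in layer II-IV-like neurons (+1.55) and in cluster 9 (+1.57) shows the largest KO changes, and Sox4, Sox11 and Sox12 lie to the right of 0 in both projection neuron classes.

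Layer II-IV-like neurons, the class of callosal and other upper-layer projection neurons, carried the largest change of Sox5 among named classes. Sox5 measured 118, 113 and 106 CPM in the WT embryos, 152, 122, 139.6 and 184 CPM in the Het embryos and 342, 310.2 and 335 CPM in the KO embryos. The groups were ordered WT, Het, KO with no overlap, as for 22.4% of genes between Het and WT, 25.9% between KO and Het and 55.9% between KO and WT. The log2 fold change was +1.55 ± 0.11 (SE) for KO against WT (adjusted p = 5.61e-08), where 30.4% of genes were called, and +1.14 ± 0.10 for KO against Het (1.79e-06), where 11.7% were. Het embryos were higher than WT embryos by +0.41 ± 0.10 (0.0167), where 6.92% of genes were called. That call held without Het replicate 4 (+0.30, adjusted p = 0.00525) and was lost without WT replicate 3 (+0.37, 0.0868). At resolution 0.8 the KO change was +0.99 (3.49e-07) and the Het change +0.27 (0.0341), where finer clusters 4 and 5, described below, stayed unnamed. With these added to the class, an alternative chosen after the data were seen, the changes were +1.59 (3.18e-07) and +0.44 (0.0274). With the library prefix as a covariate the KO change was +1.96 (2.48e-08). All WT embryos lie in 1 prefix and all KO embryos in the other. The prefix term thus rests on Het replicate 4, which had the highest Het value (184 CPM), against Het replicates 1 to 3.

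**Figure D3:**
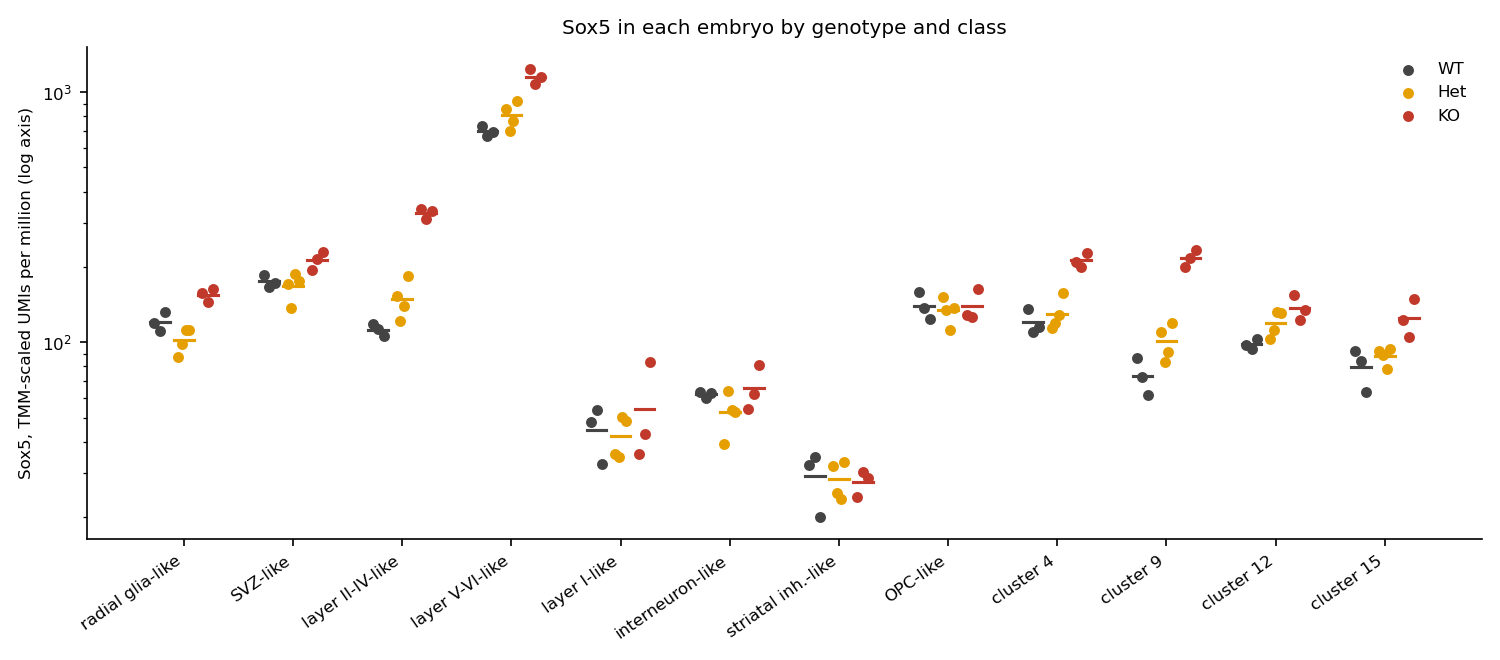
Sox5 in every embryo by class and genotype, in TMM-scaled CPM on a log axis, with points for embryos and bars for group means. KO embryos lie above all WT and Het embryos in layer II-IV-like and layer V-VI-like neurons and in clusters 4 and 9, and overlap with them in interneuron-like, striatal inhibitory-like and oligodendrocyte precursor-like cells.

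In layer V-VI-like neurons, the class of corticofugal neurons in which Sox5 is known to act, Sox5 measured 735, 667 and 693 CPM in WT, 858, 701, 764 and 919.6 CPM in Het and 1232, 1075 and 1145 CPM in KO embryos. KO embryos again lay above all others, whereas the lowest Het embryo fell among the WT embryos. In this class groups did not overlap for 48% of genes between KO and WT, 23.7% between KO and Het and 14.7% between Het and WT. The change was +0.72 ± 0.08 for KO against WT (adjusted p = 1.31e-05, with 24.9% of genes called) and +0.51 ± 0.08 for KO against Het (0.000377, 10.7%). For Het against WT it was +0.22 ± 0.08 (0.152, 2.18%). The KO change in layer II-IV-like neurons exceeded that in layer V-VI-like neurons by 0.82 ± 0.05 on the log2 scale (class by genotype interaction with embryo as a block, adjusted p = 5.76e-10, where 12.2% of genes were called). For KO against Het the difference was 0.64 ± 0.04 (2.20e-08, 5.69% called). At resolution 0.8 it was 0.31 (0.000451) for KO against WT and 0.20 (0.0127) for KO against Het, the latter below the fold limit. Layer V-VI-like neurons held 58.5% of all Sox5 UMIs of a WT embryo and 53.1% of those of a KO embryo, and layer II-IV-like neurons 20.9% and 29.7%.

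Sox5 rose in progenitor-like cells as well. In radial glia-like cells, the cortical stem cells, it measured 119.7, 110.4 and 132 CPM in WT, 87.4, 98.0, 111 and 112 CPM in Het and 157, 144 and 164 CPM in KO embryos. KO embryos were the highest, where groups did not overlap for 35.5% of genes between KO and WT and 13.7% between KO and Het, and Het embryos were not above WT. The change was +0.37 ± 0.10 for KO against WT (adjusted p = 0.0184, 16.8% of genes called), lost without any of 4 single embryos (+0.30 with 0.0955 without WT replicate 2, +0.36 with 0.0507 without WT replicate 1, +0.36 with 0.0541 without KO replicate 1, +0.33 with 0.075 without KO replicate 3). Against Het embryos it was +0.60 ± 0.09 (0.00182, 2.05%) and was kept in all 21 alternatives. In subventricular zone-like cells Sox5 rose by +0.28 ± 0.09 in KO against WT (0.0404, 14.9%) and by +0.33 ± 0.08 against Het (0.0291, 2.92%), calls lost in 7 of 21 and 4 of 22 alternatives. Single embryos without which the former was lost were WT replicates 1, 2 and 3 and KO replicates 2 and 3, with values from +0.22 (0.162, without KO replicate 3) to +0.33. For the latter they were Het replicates 1 and 2 and KO replicates 2 and 3, with values from +0.26 (0.0623) to +0.35 (0.0564). The KO change in layer II-IV-like neurons was larger than in subventricular zone-like cells by 1.26 ± 0.09 (adjusted p = 2.14e-11, 7.1% of genes called) and the Het change by 0.46 ± 0.08 (0.00337, 0.676%), or by 0.37 (0.0232) without Het replicate 4.

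In 8 of the 16 classes and clusters no change of Sox5 was called. Interneuron-like cells measured 63.2, 59.97 and 62.6 CPM in WT, 39.3, 63.8, 53.6 and 52.8 CPM in Het and 53.9, 61.9 and 81.4 CPM in KO embryos, with overlap between all groups and a change of +0.09 ± 0.16 for KO against WT (adjusted p = 0.749, 8.22% of genes called). The change in striatal inhibitory-like cells was -0.05 ± 0.17 (0.87, 14.7%), in layer I-like cells +0.29 ± 0.24 (0.539, 5.48%) and in oligodendrocyte precursor-like cells +0.01 ± 0.17 (0.995, 0.205%). Microglia-like cells (-1.25 ± 0.63, 0.286), mural-like cells (+0.02 ± 0.34), erythroid-like cells (-0.33 ± 0.52) and cluster 13 (0.00 ± 0.26) were the others, each with an SE of 0.26 or more. The KO change in layer II-IV-like neurons exceeded that in interneuron-like cells by 1.46 ± 0.20 (0.000433, 6% called), and for KO against Het by 0.83 ± 0.19 (0.0403, 1.96%). The latter was not called without WT replicate 3 (0.83, adjusted p = 0.0636), Het replicate 2 (0.63, 0.0766) or 3 (0.79, 0.12), or KO replicate 1 (0.68, 0.186), 2 (0.83, 0.142) or 3 (1.00, 0.0503).

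Of the 5 unnamed clusters, all but cluster 13 showed a called increase of Sox5 in KO embryos. In cluster 9 it measured 86.2, 72.7 and 61.5 CPM in WT, 109.8, 83.5, 91.1 and 119 CPM in Het and 200.3, 218 and 233 CPM in KO embryos (+1.57 ± 0.13, adjusted p = 6.17e-06, 13.1% of genes called). In cluster 4 it measured 136, 109.6 and 115 CPM in WT, 114, 119.9, 129 and 158 CPM in Het and 209, 200.6 and 227 CPM in KO embryos (+0.82 ± 0.11, 0.000886, 7.75%). KO embryos lay above all others in both, where KO and WT did not overlap for 33.7% of genes in cluster 9 and 30.8% in cluster 4, and KO and Het for 12.8% and 9.3%. There the KO against Het changes were +1.10 ± 0.12 (0.00029, 2.41%) and +0.70 ± 0.10 (0.00682, 0.522%). In the cycling clusters the KO changes were +0.48 ± 0.10 in cluster 12 (0.0106, 6.87%) and +0.64 ± 0.13 in cluster 15 (0.0167, 3.06%). The cluster 12 call was lost without WT replicate 2 (+0.45, 0.0531) or KO replicate 1 (+0.39, 0.051), and that of cluster 15 without WT replicate 3 (+0.52, 0.0693) or KO replicate 3 (+0.51, 0.0859).

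The change was uneven among the clusters that make up each layer class. Within layer II-IV-like neurons, Sox5 (plain CPM) went from 87.1 ± 7.44 in WT (SD, n = 3) through 125 ± 33.1 in Het (n = 4) to 380.4 ± 22.9 in KO (n = 3) in cluster 0. In cluster 1 it went from 132 ± 13.3 through 160.4 ± 19.7 to 258 ± 15.98, and in cluster 11 from 167 ± 7.51 through 194 ± 27.3 to 360.5 ± 26.1. Cluster 0 was thus lowest of these in WT embryos. In KO embryos its mean was the highest, but it differed from that of cluster 11 by less than the SD of either. Within layer V-VI-like neurons, Sox5 in cluster 5 went from 979 ± 68.2 in WT to 1293 ± 76.6 in KO, in cluster 6 from 586 ± 39.999 to 1055 ± 56.5, and in cluster 17 from 213 ± 33.5 to 225 ± 55.0, where the embryos overlapped.

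At resolution 0.8, most cells of cluster 0 fell into 3 finer clusters, chosen here after their values were seen and described without a test. The leading genes of finer cluster 4 include the neurofilament genes Nefl and Nefm and Dab1. In its cells from cluster 0, Sox5 ranged from 36.7 to 60.9 CPM in WT and from 58.6 to 167 CPM in Het embryos. In KO embryos it ranged from 467 to 548 CPM, a ratio of means of 10.9 between KO and WT. In the cluster 0 cells of finer cluster 5, led by Ntf3, Nrip1, Oma1 and Cbln2, the means were 70.7, 105 and 326 CPM (ratio 4.61). In the cluster 0 cells of finer cluster 3, with Cdh12 and Fn1 among its leading genes, they were 145, 168 and 256 CPM (ratio 1.76). Over all cells of finer cluster 4 the WT, Het and KO means were 67.9, 142 and 596 CPM. Those of finer cluster 5 were 107, 156 and 385 CPM, and those of finer cluster 3 were 143, 167 and 248 CPM. The highest Het value in each of the 3 was that of Het replicate 4. The shares of cluster 0 in these finer clusters were 38.1%, 37.1% and 33.6% for cluster 3 in WT, Het and KO, 35.3%, 33.2% and 35.2% for cluster 4, and 18.8%, 20.9% and 25.0% for cluster 5. With the WT shares applied to all embryos, Sox5 in these cells was 82.6 to 103 CPM in WT, 100.2 to 172 CPM in Het and 341 to 387 CPM in KO embryos.

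Both more cells with Sox5 and more UMIs per cell were seen. Without thinning, 35.7% ± 2.95 of layer II-IV-like cells had no Sox5 UMI in WT (SD, n = 3), 24.9% ± 6.21 in Het (n = 4) and 7.15% ± 1.32 in KO embryos (n = 3). Cells with 4 or more Sox5 UMIs were 17.4% ± 4.11, 28.1% ± 7.22 and 57.9% ± 3.26, and the mean per cell was 1.97, 2.77 and 6.43 UMIs. In cluster 0, cells with 4 or more went from 14.3% in WT through 24.7% in Het to 65.9% in KO embryos. Depth differed between groups, with a median of 15500 UMIs in the WT cells of this class that could be thinned, 17338 in Het and 18434 in KO. Thinned to 3000 UMIs in every cell, Sox5 was found in 26.4% ± 1.43 of layer II-IV-like cells in WT, 32.6% ± 4.58 in Het and 52.9% ± 2.06 in KO embryos, and in 74.0%, 80.2% and 89.8% of layer V-VI-like cells. The same share in erythroid-like cells, which should lack the gene, was 3.82%, 2.22% and 1.78%, at median depths of 10966.5, 11423.5 and 12806.5 UMIs.

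**Figure D4:**
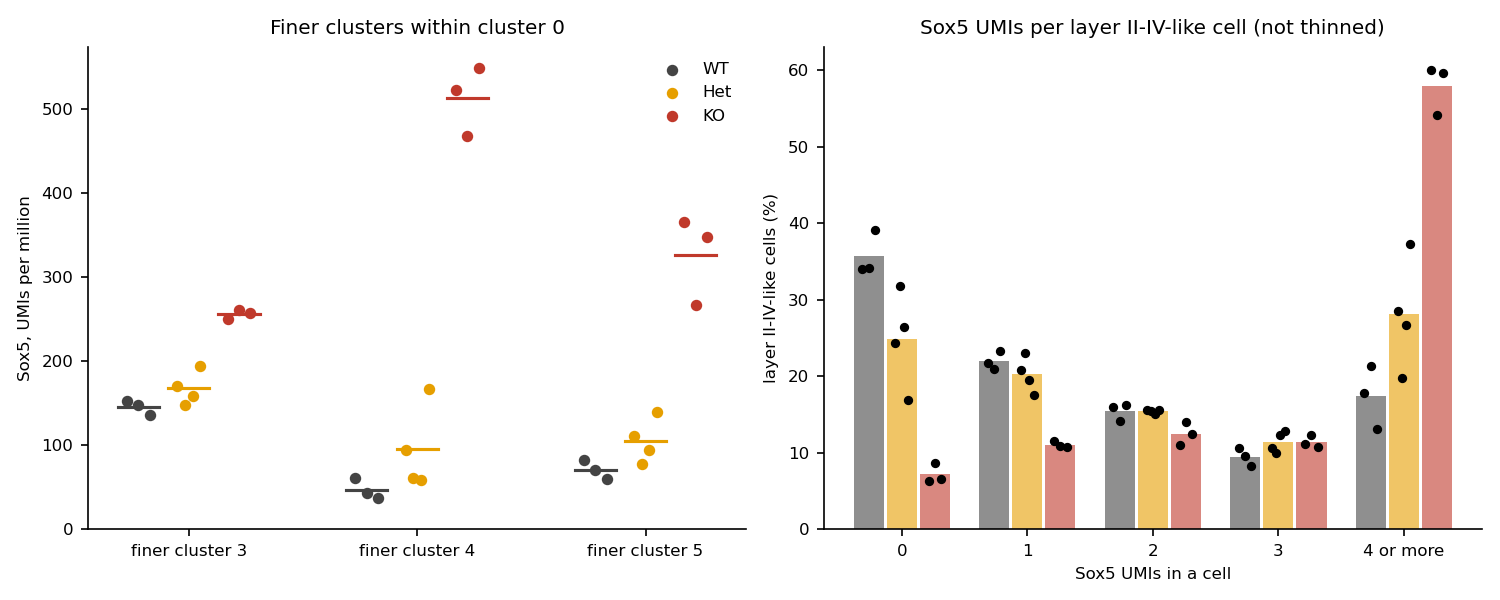
Left, Sox5 in those cells of cluster 0 (layer II-IV-like neurons) that fell into 3 finer clusters, in CPM for each embryo (points) with group means (bars). Right, percent of layer II-IV-like cells with 0, 1, 2, 3 and 4 or more Sox5 UMIs, with bars for group means and points for embryos, where cells with 4 or more make up 17.4% in WT and 57.9% in KO.

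In exact permutation tests over embryos on the thinned shares, 3 against 3 embryos cannot go below p = 0.1. An adjusted p of 0.05 is thus out of reach between KO and WT. With 3 against 4 embryos p cannot go below 0.0286, so an adjusted p below 0.05 needs many tests at that floor. In 78 tests per comparison the smallest adjusted value was 0.279 for KO against WT, 0.159 for KO against Het and 0.478 for Het against WT. For Sox5 in layer II-IV-like neurons the KO share exceeded the WT share by 26.5 percentage points, with all KO embryos above all WT embryos (2-sided exact permutation p = 0.1, the smallest possible). The Het share exceeded it by 6.17 points (exact permutation p = 0.0857), with the lowest Het embryo (28.0%) below the highest WT embryo (28.1%).

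Sums of marker genes also differed between genotypes in these neurons, while single markers went both ways. In layer II-IV-like cells the KO and WT embryos did not overlap for 8109 of 14503 genes. In layer II-IV-like cells the 10 layer V-VI markers summed to 288 to 330.2 CPM in WT, 332 to 362 CPM in Het and 434 to 480.1 CPM in KO embryos, with none of them at 0 in any embryo. Of the 10, Fezf2 (29.7, 44.0 and 90.2 CPM in WT, Het and KO), Tbr1 (92.9, 112 and 144), Rprm (69.02, 77.9 and 115) and Ldb2 (58.6, 59.3 and 67.0) were higher in every KO than in every WT embryo. Hs3st4 (3.96, 2.00 and 1.02), Crym (6.06, 6.29 and 3.02) and Tcerg1l (1.58, 0.882 and 0.450) were lower in every KO embryo, and Tle4, Foxp2 and Nfe2l3 overlapped. The 7 subplate markers summed to 43.7 to 45.8 CPM in WT and 86.0 to 98.7 CPM in KO embryos, with at most 2 of them, Cplx3 among them, at 0 in an embryo. Of the 7, Tmem178 (29.2, 39.7 and 65.5 CPM in WT, Het and KO), Hpcal1 (6.29, 7.56 and 15.0) and Nxph4 (4.88, 6.71 and 9.36) were higher in every KO than in every WT embryo, and Kcnab1 (3.79, 3.90 and 2.61) was lower. The 10 layer II-IV markers fell from 1524 to 1622 CPM in WT to 1182.5 to 1291 CPM in KO embryos, and the 10 interneuron markers from 96.8 to 116 CPM to 32.4 to 44.5 CPM. The 10 subventricular zone markers rose from 430.2 to 464 CPM to 641 to 715 CPM. In layer V-VI-like cells their own 10 markers summed to 1961 to 2058 CPM in WT and 2560.4 to 2787 CPM in KO embryos, and the 12 radial glia markers to 602 to 687 CPM and 826 to 911 CPM. The part of these in the Sox5 result was not tested.

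Sox6 rose in interneuron-like cells, a class that includes interneurons in which it is known to act. It measured 194, 151 and 166 CPM in WT, 189, 174, 167 and 195 CPM in Het and 212, 229.7 and 237 CPM in KO embryos. All KO embryos lay above all others, where groups did not overlap for 31.6% of genes between KO and WT and 10.4% between KO and Het, whereas Het and WT overlapped. The change was +0.41 ± 0.09 for KO against WT (adjusted p = 0.0191), +0.32 ± 0.09 for KO against Het (0.153) and +0.09 ± 0.09 for Het against WT (0.688). The KO call was lost without WT replicate 2 (+0.33, 0.0511) or 3 (+0.40, 0.0801), without KO replicate 2 (+0.40, 0.0817) or 3 (+0.38, 0.0642), and at resolution 0.8 (+0.36, 0.0679). The 10 interneuron markers, by contrast, summed to 2695 to 3716 CPM in WT, 2397 to 3661 CPM in Het and 2222 to 2551 CPM in KO embryos in these cells, and the 12 striatal markers to 353 to 399.6 CPM in WT and 472 to 527 CPM in KO. The part of these markers in the Sox6 result was not tested. The class joins cluster 2, led by Maf, Nxph1 and Lhx6, cluster 8, led by Adarb2, Htr3a and Prox1, and cluster 14, led by Sst. The part of a change in their mix was not tested either. Thinned to 3000 UMIs, Sox6 was found in 32.4% ± 1.74 of interneuron-like cells in WT, 33.5% ± 1.65 in Het and 40.7% ± 2.66 in KO embryos. In layer V-VI-like neurons the share was 0.848% ± 0.170 in WT and 0.591% ± 0.0460 in KO embryos, and median depths in WT were 7522 UMIs in interneuron-like and 17457.5 UMIs in layer V-VI-like cells.

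In subventricular zone-like cells Sox6 rose by +0.33 ± 0.08 in KO against WT embryos (adjusted p = 0.00733), from 104, 108 and 92.6 CPM to 122, 129 and 134 CPM, with Het embryos at 109.7, 100.5, 99.95 and 119 CPM overlapping with WT. Without WT replicate 3 it was +0.28 (0.0501). Their own 10 markers rose with it, from 2547 to 2917 CPM in WT to 3164 to 3389 CPM in KO, and the part of these in the result was not tested. In radial glia-like cells Sox6 was at one level, 153, 160.1 and 135 CPM in WT and 153, 147 and 155 CPM in KO embryos (+0.03 ± 0.09, 0.874), unlike Sox5, which was called there. The difference between both genes was not tested. In oligodendrocyte precursor-like cells, where Sox6 ranged from 121 to 228 CPM in WT and from 186 to 265 CPM in KO, the change was +0.37 ± 0.21 (0.466). The share of Sox6 UMIs by class also differed: interneuron-like cells gave 51.1% of them in WT and 43.0% in KO, subventricular zone-like cells 9.40% and 18.2%, and radial glia-like cells 9.47% and 14.7%.

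The largest fold change of Sox6 was in striatal inhibitory-like cells, where its level was low. It measured 10.2, 11.7 and 9.90 CPM in WT, 9.80, 7.48, 11.8 and 13.5 CPM in Het and 16.01, 20.1 and 31.6 CPM in KO embryos (+1.09 ± 0.22 for KO against WT, adjusted p = 0.00248, and +1.05 ± 0.20 for KO against Het, 0.0232, where 0.672% of genes were called). The highest value was that of KO replicate 3, without which the KO against Het change was +0.74 (0.172). Without Het replicate 2 or KO replicate 2 it was +0.93 (0.0602) and +1.14 (0.0607). The class joins cluster 3 (4194 cells), led by Six3, Zfhx3 and Pbx3, and cluster 10 (2328 cells), led by Ebf1 and Isl1. The part of a change in their mix was not tested. At resolution 0.8 the KO against WT change was -0.16 (0.862). At that resolution a cluster of 2452 cells led by Pbx3 and Tshz1 stayed unnamed, outside the class. The 10 interneuron markers in the striatal inhibitory-like cells summed to 979.7 to 998 CPM in WT and 971 to 1025 CPM in KO embryos, ranges that overlapped. In layer V-VI-like neurons Sox6 was low, at 2.15, 4.22 and 2.68 CPM in WT, 1.30, 1.13, 1.43 and 2.05 CPM in Het and 3.24, 2.32 and 3.23 CPM in KO embryos. The KO against Het change there (+0.96 ± 0.26, 0.0235) turned to -0.16 with marked doublets removed, and was lost without Het replicates 1, 2 or 3 or KO replicates 1 or 3 (+0.86 to +0.94, adjusted p from 0.0519 to 0.0927).

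How often Sox5 and Sox6 were found in the same cells differed between classes. In thinned WT cells, 9.61% of radial glia-like cells held both, where the product of the shares was 9.85%, and 4 of 10 embryos of all genotypes were below the product. Interneuron-like cells held both in 3.26% against 4.39%, and 10 of 10 embryos were below the product. In subventricular zone-like cells the WT means were 10.0% against 10.1%, but over all genotypes 2 of 10 embryos were below the product. The WT share was above the product in oligodendrocyte precursor-like cells (11.2% against 9.63%), striatal inhibitory-like cells (0.338% against 0.179%), cluster 12 (2.58% against 2.21%) and cluster 15 (2.79% against 1.98%), with 2, 2, 1 and 1 of 10 embryos below it. No test was made, and depth within a class adds to such counts.

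Sox13 was called in no class by edgeR or DESeq2, with an unadjusted p below 0.05 in 1 class for KO against WT and in 1 for Het against WT. It passed the filter in layer II-IV-like, radial glia-like, striatal inhibitory-like and mural-like cells and in clusters 9 and 12. Mural-like cells had the highest Sox13 level in WT among the classes compared. In them it measured 16.9, 20.0 and 7.98 CPM in WT, 23.4, 10.7, 27.1 and 25.6 CPM in Het and 22.5, 10.4 and 13.0 CPM in KO embryos, with full overlap (+0.06 ± 0.42 for KO against WT, adjusted p = 0.974). In striatal inhibitory-like cells all Het embryos (11.4, 11.1, 8.73 and 7.97 CPM) lay above all WT embryos (5.64, 7.02 and 6.11 CPM), as for 16.1% of genes. The change was +0.62 ± 0.21 (0.12), and KO embryos at 6.12, 6.71 and 10.5 CPM overlapped with both. Without Het replicate 4 that change was called (+0.72, 0.0376). In layer II-IV-like cells the KO change was +0.84 ± 0.35 (0.0616), at levels of 0.222 to 0.298 CPM in WT and 0.390 to 0.565 CPM in KO embryos, and it was called without Het replicate 3 (+0.83, 0.0433) or 4 (+0.84, 0.0437).

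Among the SoxC genes, Sox11 changed most in layer II-IV-like neurons. It measured 4947, 4529 and 4758 CPM in WT, 6039, 5378, 5785 and 5450.0 CPM in Het and 6722, 6948 and 7182 CPM in KO embryos, an order of WT, Het and KO with no overlap. The change was +0.55 ± 0.05 for KO against WT (adjusted p = 1.34e-06), +0.30 ± 0.05 for KO against Het (0.000637) and +0.26 ± 0.05 for Het against WT (0.0056). Without Het replicate 4 the Het change was +0.27, and it was under the fold limit without WT replicate 2 (+0.22, adjusted p = 0.0394), Het replicate 1 (+0.22, 0.02) or Het replicate 3 (+0.24, 0.0186). In layer V-VI-like neurons Sox11 rose by +0.36 ± 0.05 (9.64e-05), from 3729.7, 3636 and 3349 CPM in WT to 4667, 4659 and 4451 CPM in KO. In subventricular zone-like cells, where its level was highest, Sox11 was 6945, 6112 and 6223 CPM in WT and 6489.7, 6977 and 7057 CPM in KO embryos, with overlap (+0.09 ± 0.07, 0.452). The KO change in layer II-IV-like neurons exceeded the latter by 0.44 ± 0.04 (1.41e-08, 7.1% of genes called).

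Layer I-like cells, which include Cajal-Retzius neurons by their markers, had the largest called change of Sox11. It measured 639, 838 and 714 CPM in WT, 1075, 769, 1010.0 and 778 CPM in Het and 1054, 1703 and 1575 CPM in KO embryos (+0.98 ± 0.14 for KO against WT, adjusted p = 0.000273). KO embryos were above WT, as for 25.3% of genes, and overlapped with Het. At resolution 0.8 the same 813 cells formed 1 cluster, but the class also took in a cluster of 935 cells led by Tac2 and Tesc, 919 of them from cluster 9, and the change over both was +0.17 (0.279). The change rose to +1.5 (0.000104) with marked doublets removed. Each embryo holds 48 to 111 of these cells. Their 10 layer I markers summed to 8182 to 8632 CPM in WT and 6910.1 to 7745 CPM in KO embryos, and the part of this in the result was not tested. The KO against Het change (+0.67 ± 0.13, 0.0139, where 0.948% of genes were called) was lost without KO replicate 2 (+0.53, 0.132) or 3 (+0.60, 0.117).

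Sox4 had its largest change among projection neurons in layer V-VI-like cells. It measured 3069, 2845 and 2829.6 CPM in WT, 3607, 3269, 3331 and 3513 CPM in Het and 4038, 4119 and 4149 CPM in KO embryos, with no overlap, as for 14.7% (Het against WT), 23.7% (KO against Het) and 48% (KO against WT) of genes. The change was +0.49 ± 0.05 for KO against WT (adjusted p = 2.82e-06), +0.26 ± 0.05 for KO against Het (0.00122) and +0.23 ± 0.05 for Het against WT (0.0179), the last under the fold limit. The KO against Het call was lost by its size without Het replicate 2 (+0.24) or 3 (+0.25). In layer II-IV-like neurons the KO change was +0.27 ± 0.05 (0.000569), and +0.22 without WT replicate 2 (0.0054). The difference of the KO changes between these classes was -0.23 ± 0.03 (3.72e-05), the opposite sign to Sox5 and Sox11, and its size was under the fold limit. Sox4 was also called in radial glia-like cells, from 974, 834 and 1085 CPM in WT to 1191, 1243 and 1299 CPM in KO (+0.37 ± 0.09, 0.011), a call lost without WT replicate 2 (+0.27, 0.0651) or KO replicate 3 (+0.34, 0.0507). In interneuron-like cells it rose from 2088, 1532 and 1859 CPM to 2504, 2378 and 2322 CPM (+0.40 ± 0.11, 0.0417), a call lost in 12 of 21 alternatives. Among them were the fits without WT replicates 2 or 3, Het replicates 2 or 3, or any KO replicate (+0.28 to +0.42, adjusted p from 0.0543 to 0.121).

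Sox12 rose by +0.36 ± 0.04 in layer V-VI-like neurons (adjusted p = 1.92e-05), from 137, 136 and 129 CPM in WT through 145, 148, 151 and 151 CPM in Het to 174, 172 and 171 CPM in KO embryos. The groups did not overlap, as for 14.7% of genes between Het and WT, 23.7% between KO and Het and 48% between KO and WT. In layer II-IV-like neurons it rose by +0.27 ± 0.04 (8.65e-05), and by +0.24 without WT replicate 3 (0.00115), and in striatal inhibitory-like cells by +0.43 ± 0.08 (0.00135). In cluster 9 it rose by +0.47 ± 0.06 (0.000169), and by +0.30 ± 0.05 against Het (0.00792), which was +0.32 (0.00677) without Het replicate 4 and was not called without KO replicate 1 (+0.27, 0.0684). Of the smaller SoxC calls, Sox11 rose by +0.31 ± 0.06 in cluster 9 (0.00552) and by +0.28 ± 0.08 in cluster 4 (0.046). The cluster 4 call was lost in 9 of 19 alternatives, among them those without any WT replicate, Het replicates 2 or 3 or KO replicates 2 or 3 (+0.21 to +0.32, adjusted p from 0.0524 to 0.157). That of Sox12 in layer I-like cells (+0.34 ± 0.10, 0.0473) was lost in 11 of 21, among them those without any WT replicate, Het replicate 3 or KO replicates 2 or 3 (+0.30 to +0.37, adjusted p from 0.0508 to 0.157). In radial glia-like cells neither Sox11 (+0.02 ± 0.10, 0.903) nor Sox12 (+0.19 ± 0.09, 0.16) was called.

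Comparisons within 1 library name prefix set KO embryos against Het replicates 1 to 3, an alternative chosen after the data were seen. Over all cells Sox5 (+0.78 ± 0.09, adjusted p = 0.00119) and Sox6 (+0.41 ± 0.08, 0.0159) were called, and Sox12 (+0.17), Sox4 (+0.17), Sox11 (+0.17) and Sox13 (-0.11) were not, where 6.14% of genes were. In layer II-IV-like neurons Sox5 (+1.25 ± 0.06, 1.69e-08) and Sox11 (+0.28 ± 0.05, 0.00149) were called (12.6% of genes), and in layer V-VI-like neurons Sox5 (+0.58 ± 0.07, 9.76e-05), Sox4 (+0.27 ± 0.04, 0.000556) and Sox6 (+1.2 ± 0.22, 0.00275), with 11.4% of genes. Sox6 was also called in interneuron-like (+0.36 ± 0.07, 0.043), subventricular zone-like (+0.31 ± 0.07, 0.0109) and striatal inhibitory-like cells (+1.2 ± 0.22, 0.0172), where 0.726%, 3.05% and 0.562% of genes were. Sox5 was called in radial glia-like (+0.66, 0.000829, with 289 of 11012 genes called) and subventricular zone-like cells (+0.36, 0.0225). It was also called in cluster 4 (+0.81, 0.000912, with 37 of 12117) and cluster 9 (+1.19, 7.76e-05, with 289 of 12036). Sox12 was called in cluster 9 (+0.31, 0.0171) and Sox11 in layer I-like cells (+0.60, 0.035, with 120 of 10011). In erythroid-like cells Sox11 was lower in KO (-0.99 ± 0.23, 0.00322), where 19.4% of genes were called. The fit of all embryos called no member there and 9.55% of genes between KO and Het. In the other prefix, a single Het embryo stands against the WT embryos, so this embryo and its genotype cannot be told apart, and no test was made. Sox5 in Het replicate 4 was 287 CPM over all cells against 174 to 226 CPM in WT, 184 against 106 to 118 CPM in layer II-IV-like and 919.6 against 667 to 735 CPM in layer V-VI-like neurons. With the prefix as a covariate in the fit of all 10 embryos, 12 KO against WT calls were made within classes in place of 25. The share of all genes called in these fits is not given here, and whether the drop is particular to the 6 genes was not tested. Among the calls lost were Sox5 in radial glia-like and subventricular zone-like cells and clusters 12 and 15. Others were Sox4 in layer II-IV-like, radial glia-like and interneuron-like cells, and Sox11 in layer I-like cells and clusters 4 and 9. Sox12 was lost in layer I-like and striatal inhibitory-like cells, and so was the Het against WT call of Sox11 in layer II-IV-like neurons.

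Other genes of the same pathways were followed in 4 lists. The lists were chosen with earlier results of these data known, so their counts are descriptions and no independent test. Of the other Sox genes, 6 of 11 tested rose in KO against WT embryos over all cells and none fell, where 12% of all genes were called higher and 12.5% lower, with a median log2 fold change of 0.40 beside -0.0055 for all genes. They were Sox3 (+1.16 ± 0.14, adjusted p = 0.00018), Sox21 (+0.87 ± 0.13, 0.000698), Sox30 (+0.76 ± 0.21, 0.0174), Sox1 (+0.52 ± 0.12, 0.00591), Sox9 (+0.50 ± 0.09, 0.00197) and Sox2 (+0.39 ± 0.07, 0.00205). Sox1, Sox2, Sox3, Sox9 and Sox21 are known from neural progenitors, and the part of the shares of subventricular zone-like and radial glia-like cells given above was not tested. Sox3 was the only one called between Het and WT embryos (+0.59 ± 0.13, 0.0392), whereas without Het replicate 4 Sox3 (+0.60, 0.0152), Sox30, Sox21, Sox1 and Sox9 were called higher, 5 of 11. Of all genes, 1.58% were called higher between Het and WT embryos, and 5.14% without Het replicate 4. In layer II-IV-like neurons Sox21 and Sox3 rose in KO (+1.31 ± 0.28 and +1.07 ± 0.20, 2 of 7 tested, where 14.7% of all genes were called higher), at levels below 2 CPM. Layer V-VI-like neurons had higher Sox9 (+1.13 ± 0.25) and Sox30 (+1.63 ± 0.51) in KO, 2 of 6 tested, where 12.3% of all genes were called higher.

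Among genes of cortical projection neuron identity, 6 of 12 rose and 2 fell in KO against WT embryos over all cells (median 0.26), beside the 12% of all genes called higher and 12.5% lower. The largest increases were in Fezf2 (+1.02 ± 0.12, adjusted p = 0.000102), Bcl11b, a factor of subcerebral axon growth (+0.57 ± 0.04, 1.09e-05), and Tbr1, a factor of layer VI (+0.48 ± 0.07, 0.000677). Nr4a2 (-0.59 ± 0.08, 0.000399) and Lmo4 (-0.61 ± 0.10, 0.00108) fell. No gene of the list was called between Het and WT embryos over all cells, and without Het replicate 4 Fezf2 (+0.32, 0.037) and Id2 (+0.30, 0.00625) were. Without the genes used as class markers, 8 remained within classes. In layer II-IV-like neurons Bcl11b went from 97.1 through 148 to 332 CPM in WT, Het and KO (+1.77 ± 0.08, 1.39e-09, and +0.61 ± 0.07 in Het, 0.000288, or +0.54, 3.44e-05, without Het replicate 4). Nr4a2 rose (+0.33 ± 0.11, 0.0273), and Zfpm2 (-0.41 ± 0.16, 0.0466) and Lmo4 (-0.97 ± 0.11, 8.11e-06) fell, so 2 rose and 2 fell of 8, where 14.7% of all genes were called higher and 15.7% lower. In layer V-VI-like neurons Bcl11a (+0.89 ± 0.06), Id2 (+0.64 ± 0.07) and Bcl11b (+0.51 ± 0.05) rose, and Lmo4 (-1.09 ± 0.14) and Nr4a2 (-1.38 ± 0.14) fell.

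Of 15 early neuronal genes, among which are known SoxC targets, 6 rose and 1 fell over all cells in KO against WT embryos (median 0.14), beside 12% and 12.5% of all genes. Nhlh1 (+1.15 ± 0.12, adjusted p = 5.16e-05), Insm1 (+0.73 ± 0.11, 0.000492) and Tead2 (+0.62 ± 0.07, 0.000116) rose most, and Tubb3, the neuronal tubulin that SoxC factors are known to activate, fell (-0.31 ± 0.06, 0.0029). The counts were the same in layer II-IV-like neurons, 6 up and 1 down beside 14.7% and 15.7% of all genes, led by Nhlh1 (+2.13 ± 0.15, 1.03e-07), Neurod1 (+0.93 ± 0.07, 2.55e-07) and Insm1 (+0.82 ± 0.09, 6.03e-06), with Tubb3 again lower (-0.31 ± 0.06, 0.00059). The 10 subventricular zone markers rose in the same layer II-IV-like cells from 430.2 to 464 CPM in WT to 641 to 715 CPM in KO embryos, and their part in these changes was not tested. In Het embryos 4 of 15 rose over all cells and 5 of 15 in layer II-IV-like neurons, and none fell, where 3.3% of all genes were called higher in the latter. The counts were the same without Het replicate 4, where the share of all genes called higher was 5.14% over all cells and 5.73% in layer II-IV-like neurons. In layer V-VI-like neurons 3 rose (Insm1, Elavl4 and Dcx, +0.26 to +0.53) and 3 fell (Tubb3, Neurod1 and Prox1, -1.25 to -0.36) in KO, 3 of 15 each way, where 12.3% of all genes were called higher and 12.6% lower.

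Few genes of the ganglionic eminence interneuron program were called over all cells. There Dlx2 rose (+0.42 ± 0.13, adjusted p = 0.0252), and Lhx6 (-0.67 ± 0.15, 0.00631) and Npas1 (-1.03 ± 0.15, 0.000474) fell in KO against WT embryos, 1 and 2 of 14 tested (median -0.07), where 12% of all genes were called higher and 12.5% lower. In layer II-IV-like neurons, where the genes were at low levels, 6 of 13 fell, where 15.7% of all genes were called lower: Lhx6 (-1.58 ± 0.20), Npas1 (-1.13 ± 0.29), Cxcr4 (-1.07 ± 0.26), Erbb4 (-0.74 ± 0.16), Maf (-0.56 ± 0.12) and Dlx1 (-0.55 ± 0.18). Of 12 tested in layer V-VI-like neurons, 8 fell, where 12.6% of all genes were called lower, the largest decreases being in Npas1 (-1.28 ± 0.40), Cxcr4 (-0.99 ± 0.31) and Lhx6 (-0.94 ± 0.28). No list gene was called higher in either class. The 10 interneuron markers fell in the same cells, from 96.8 to 116 CPM in WT to 32.4 to 44.5 CPM in KO in layer II-IV-like and from 226 to 277 CPM to 97.7 to 144 CPM in layer V-VI-like neurons. Their part in the list's changes was not tested.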

How the data were processed

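UMI counts per gene and cell were used as deposited by the authors, who sequenced 10x Chromium 3′ version 3 libraries, 1 per embryo. The submitters' processing notes name Cell Ranger 6.0.2 and mm10. Barcodes under 1000 UMIs or over 10% mitochondrial UMIs were dropped. Cells were integrated by embryo and clustered (Seurat 5.3.0, 2000 variable genes without the 6 members, resolution 0.4), and clusters were named from marker lists. Marked doublets (4.8% to 8.3% of cells per embryo, by Scrublet scores) were kept and removed in an alternative. Kept cells held 82872641 to 123737385 UMIs per embryo.

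Counts were summed per embryo and class, for classes with at least 20 cells in every embryo, filtered with filterByExpr and tested with edgeR 4.0.16 (quasi-likelihood F-test, TMM, all 10 embryos in 1 fit, Benjamini-Hochberg adjustment over all genes tested). Embryos were the replicates, so the tests set differences between groups against the spread between embryos. WT and KO embryos each lie in 1 library prefix, so their p-values do not separate genotype from prefix. Levels in WT are plain CPM and values in comparisons are TMM-scaled CPM. Cells were thinned to 3000 UMIs for shares of cells with a UMI, and shares were compared by exact permutation tests. The scripts were tested on simulated data. Free RNA and counting of overlapping genes can add to low counts.

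The members and gene lists were chosen with earlier results of these data known. Named in the text are the 6 members, Gatad2b, the called genes of each list (with more than 6 called in a comparison, the 3 largest increases and 3 largest decreases) and, for each member, the 5 genes with the highest Pearson r over WT classes. Alternatives were DESeq2 1.42.0, other filters, no integration, other clustering, a replicate block, the library prefix as covariate, equal class weights and leaving out each embryo. Endothelial-like cells were too few in some embryos and were not tested. The result of 1 list gene is not reported here.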

Additional observations from a re-analysis of the deposited data

Results flagged for a closer look

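In 5 of 87 sets of 4 Het embryos, 1 embryo lay far from the other three, where chance flags about 1 in 20 such sets. Sox4 in Het replicate 1 was 2754 CPM over all cells (2509 to 2534 in the others) and 2893 CPM in layer II-IV-like neurons (2690 to 2714 in the others). Sox11 in microglia-like cells of Het replicate 3 was 1560.0 CPM, with 365 to 524 in the others. Sox5 in mural-like cells of Het replicate 2 was 97.5 CPM, with 34.1 to 43.4 in the others. Sox12 in striatal inhibitory-like cells of Het replicate 3 was 136 CPM, with 112 to 115 in the others. Het replicate 4, which stood apart over all genes, was in none of these.

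Genotype changes differed between classes in 8 of 54 tests of the class by genotype interaction, each given as the log2 change in layer II-IV-like neurons minus that in the other class. For Sox5 the difference for KO against WT was 0.82 from layer V-VI-like neurons, 1.46 from interneuron-like cells and 1.26 from subventricular zone-like cells. For KO against Het it was 0.64, 0.83 and 0.80 from the same classes, and for Het against WT it was 0.46 from subventricular zone-like cells. For Sox11 the KO against WT difference from subventricular zone-like cells was 0.44. Where given above, the share of all genes called in these tests ran from 0.676% to 12.2%.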

How the results depend on the processing

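Over 48 single results of the 6 genes, 862 alternative values kept direction and side of the threshold, 125 lost the call and 6 reversed. With equal class weights, KO against WT over all cells reversed to -0.19 for Sox11, -0.0359 for Sox12 and -0.0809 for Sox4 and Het against WT to -0.21 for Sox5, and the members called fell from 6 to 0 (KO against WT) and from 1 to 0 (KO against Het). Sox6 reversed to -0.16 in layer V-VI-like neurons (KO against Het, doublets removed) and to -0.16 in striatal inhibitory-like cells (KO against WT, resolution 0.8). The cause was not tested. Members called over all cells between Het and WT rose from 0 to 1 with DESeq2, with the replicate block and at 5% mitochondrial UMIs, and were 0 to 1 when single embryos were left out. Between KO and Het they rose from 1 to 2 with DESeq2, the block, the prefix as covariate, 5% mitochondrial UMIs and within 1 prefix, with 1 to 2 leaving out embryos, and between KO and WT were 4 to 6. Within classes, Het against WT calls went from 2 to 5 (DESeq2), 8 (no filter), 4 (block) and 1 to 4 (embryos left out), KO against WT calls from 25 to 12 (prefix as covariate) and 16 to 28 (embryos left out, 16 without WT replicate 2), and KO against Het calls from 12 to 8 to 14 (embryos left out). At resolution 0.8 calls in the named classes went from 2 to 1 (Het against WT) and from 9 to 5 (KO against Het). The shares of all genes called within classes are not set beside these counts, so whether the shifts are particular to the 6 genes was not tested. Of the Sox5 differences between classes, that from interneuron-like cells (KO against Het) fell to 0.48 (adjusted p = 0.128) and that from layer V-VI-like neurons to 0.20 (0.0127) at resolution 0.8. That from layer V-VI-like neurons for Het against WT rose from 0.19 to 0.32 (0.00367) with the prefix by class. Leaving out embryos, the former was 0.63 to 1.00. The WT log2 ratio of Sox5 between the layers was 2.42 without integration and 2.18 at resolution 0.8. Same-numbered embryos of different groups correlated at r = -0.30 to 0.12. Embryos with different numbers were not compared, so whether equal numbers mark a shared litter or run was not tested. With the replicate block 1850 genes were called between Het and WT over all cells in place of 525, 1002 with DESeq2 and 41 with the prefix as covariate, and 74 to 218 without single WT replicates. Sox13 had 409 UMIs in all WT cells, and whether depth limits its calls was not tested.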
